A study of Mus musculus with 43 samples.

Results

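Immunoglobulin chain genes were examined in 4 mouse tissues, the liver, brain, skeletal muscle and white adipose tissue (WAT, the inguinal depot). They were the rows of the deposited expression table whose gene name begins with Ighv, Igkv, Iglv, Ighg, Igha, Ighd, Igkc or Iglc, or is Ighm, and whose FPKM was at least 1 in any of the 16 groups. FPKM is a count of sequenced fragments divided by gene length and by library depth, so levels of different genes can be compared on it roughly, very short segments apart. The rule gave 204 genes of the 310 rows with such a name and of 42349 rows in all, of which 20228 reached an FPKM of 1. They were 100 heavy chain variable (V) segments, 92 kappa V segments, 3 lambda V segments, 7 heavy chain constant region genes (Ighm, Ighd, Ighg1, Ighg2b, Ighg2c, Ighg3 and Igha), the kappa constant region Igkc and the lambda constant region Iglc2. None of the 20 diversity segments reached the minimum. The members were thus chosen by their FPKM levels in these groups, and levels and counts over members are given below as descriptions.

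The mice were females at 15 months of age. Wild type (WT, Irs1+/+) mice and mice with a global knockout of insulin receptor substrate 1 (KO, Irs1-/-) were fed ad libitum (AL) or were held on 30% dietary restriction (DR) that began at 10 weeks of age and had lasted 12 months. Each tissue therefore had 4 groups with 2 or 3 libraries each, 43 in all, and where 4 values are listed without names they are in 1 order, WT on AL and on DR, then KO on AL and on DR. WT AL had 2 libraries in every tissue, and WT DR had 2 in WAT. The inguinal depot of females also holds a lymph node and mammary gland. The labels do not say which libraries came from the same mouse. The table holds a single FPKM with a 95% interval per group and no value per library, so depth and the spread of single mice are unknown. Irs1 was listed lower in KO than in the WT group on the same diet in 1 of 8 pairs (2.58 to 6.31 FPKM in KO, 1.62 to 6.56 in WT), so group names are those of the labels throughout.

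Antibodies are made of heavy and light chains. Each chain is encoded by a V segment joined to short D or J segments in a developing B cell and spliced to a constant region, and the constant region of the heavy chain (mu, delta, gamma or alpha) sets the class of the antibody, IgM, IgD, IgG or IgA. Plasma cells, the secreting descendants of B cells, fill with immunoglobulin mRNA, and all cells of a clone carry the same V segments. The levels of V segments describe how much antibody mRNA a tissue holds and how evenly the segments share it. A segment level cannot tell a single clone from several that use the same segment. Each value is also pooled over the libraries of a group, so how clones share the mRNA was not tested. In bulk tissue, fewer cells and less RNA per cell cannot be told apart.

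The V segments on which the results turn are shown as the last 300 bases of their coding sequence in the GENCODE M21 annotation (GRCm38), 5′ to 3′. Capitals mark the bases around the conserved second cysteine codon near the end of each V segment, found as TATTTCTGT, TATTACTGT, TATTATTGT or TACTACTGT, after which the joint with the J or D segment follows. Igkv3-2 (chr6:70698449-70699067, plus strand) is shown because it led the kappa chains of several tissues, and Ighv1-53 (chr12:115158403-115158835, minus strand) because it led the heavy chains of WAT. Igkv14-126 (chr6:67896172-67896642, plus strand) was the kappa segment with the next highest mean in WAT. Ighv9-4 (chr12:114299961-114300389, minus strand) was high in WAT of WT AL alone, and Ighv2-9-1 (chr12:113769850-113770302, minus strand) and Igkv2-109 (chr6:68302427-68303158, plus strand) were high in WAT and muscle of KO AL.
Igkv3-2: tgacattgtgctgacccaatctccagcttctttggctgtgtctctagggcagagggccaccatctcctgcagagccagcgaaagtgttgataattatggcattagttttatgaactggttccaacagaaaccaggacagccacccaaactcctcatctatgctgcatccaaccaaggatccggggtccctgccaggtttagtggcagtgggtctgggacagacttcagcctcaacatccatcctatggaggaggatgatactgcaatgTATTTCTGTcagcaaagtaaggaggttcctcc
Igkv14-126: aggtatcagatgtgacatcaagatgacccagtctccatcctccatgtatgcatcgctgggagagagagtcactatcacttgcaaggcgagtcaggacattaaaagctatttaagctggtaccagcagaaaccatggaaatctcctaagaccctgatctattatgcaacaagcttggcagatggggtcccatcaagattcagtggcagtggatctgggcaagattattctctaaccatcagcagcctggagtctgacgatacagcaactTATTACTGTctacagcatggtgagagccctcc
Igkv2-109: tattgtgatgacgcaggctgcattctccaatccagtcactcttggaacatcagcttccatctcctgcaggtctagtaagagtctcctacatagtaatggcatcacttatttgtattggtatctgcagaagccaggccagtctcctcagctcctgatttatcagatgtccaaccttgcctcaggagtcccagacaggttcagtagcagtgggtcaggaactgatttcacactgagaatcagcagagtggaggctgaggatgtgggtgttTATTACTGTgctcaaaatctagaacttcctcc
Ighv1-53: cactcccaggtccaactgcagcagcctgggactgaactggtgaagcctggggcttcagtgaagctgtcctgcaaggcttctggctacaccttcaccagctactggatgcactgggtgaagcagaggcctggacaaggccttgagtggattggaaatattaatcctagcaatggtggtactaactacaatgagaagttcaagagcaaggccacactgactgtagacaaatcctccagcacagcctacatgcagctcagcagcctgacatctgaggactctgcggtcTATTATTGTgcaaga
Ighv9-4: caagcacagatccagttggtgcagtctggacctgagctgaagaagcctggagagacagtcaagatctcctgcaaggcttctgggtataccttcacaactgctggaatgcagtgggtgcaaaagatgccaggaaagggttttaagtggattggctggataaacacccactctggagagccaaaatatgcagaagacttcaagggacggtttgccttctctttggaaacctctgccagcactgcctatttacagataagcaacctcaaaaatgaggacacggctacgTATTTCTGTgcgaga
Ighv2-9-1: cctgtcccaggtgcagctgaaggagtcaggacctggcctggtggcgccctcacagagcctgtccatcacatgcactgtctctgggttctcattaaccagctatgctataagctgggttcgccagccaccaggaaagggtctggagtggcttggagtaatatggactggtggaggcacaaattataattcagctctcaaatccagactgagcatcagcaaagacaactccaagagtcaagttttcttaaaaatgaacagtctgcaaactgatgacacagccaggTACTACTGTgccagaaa

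These letters also set how well reads can be assigned. Reads shorter than 54 bases were removed by the authors, and a stretch of 54 bases of a V segment was counted as unique when no other annotated V segment held it. Of 195 V segments, 183 had a coding sequence in the annotation and 160 had at least 50% of their stretches unique, with a median of 77.7%. Over the last 250 bases, Igkv3-2 was 59.2% identical to Igkv2-109, and its nearest segment was Igkv3-1 at 92.4%, which left 81.0% of its stretches unique. All stretches of Igkv14-126, Igkv12-89 and Igkv5-39 were unique (100%). Ighv1-53 was 96.4% identical to Ighv1-72 and had 47.0% unique, so its level is uncertain where the authors' counting split reads between the members of this family.

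Immunoglobulin mRNA was highest in inguinal WAT. Igkc, the constant region of nearly all mouse light chains, stood at 5573 FPKM in WT AL (95% interval 2522 to 8625), 2082 in WT DR (0 to 4982), 4488 in KO AL (670 to 8306) and 2452 in KO DR (118 to 4785). The intervals of the 4 groups overlapped. In muscle Igkc was 433 FPKM in WT AL, 147 in WT DR, 905 in KO AL and 311 in KO DR. In liver it was 245, 126, 122 and 169 FPKM in the same order, and in brain 7.29, 7.76, 3.77 and 6.28 FPKM. Within each arm WAT was therefore above muscle by 4.96- to 14.2-fold and above liver by 14.5- to 36.9-fold, with no test between tissues, since levels chose the genes. Summed FPKM per group was lower in WAT than in liver or muscle, and relative to summed FPKM these ratios became 14.3- to 28.9-fold and 24.2- to 106-fold. All members together made up 1.81% of the summed FPKM of WAT in WT AL, 0.443% in WT DR, 1.60% in KO AL and 0.869% in KO DR, against at most 0.103% in any other tissue.

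Of the 204 members, 200 had their highest level in WAT. Membership fixed part of this count, since 56 members reached an FPKM of 1 in WAT and in no other tissue. The share of all genes that peaked in WAT was not computed. The 4 that peaked in muscle were Ighd in WT AL (13.8 FPKM), Ighv3-1 (2.01) and Ighv5-2 (1.70) in KO AL, and Igkv4-62 (2.07) in KO DR, and the last 3 were named after their values were seen. Between 132 and 187 members reached an FPKM of 1 in a WAT group, 44 to 106 in a muscle group, 39 to 67 in a liver group and 4 to 6 in a brain group. The members just inside the minimum were Ighv4-2 (1.14 FPKM at its highest), Igkv11-125 (1.26) and Ighv2-4 (1.32). Those just outside were Ighv2-1 (0.92), Ighv1-25 (0.91) and Igkv5-37 (0.78).

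**Figure D1:**
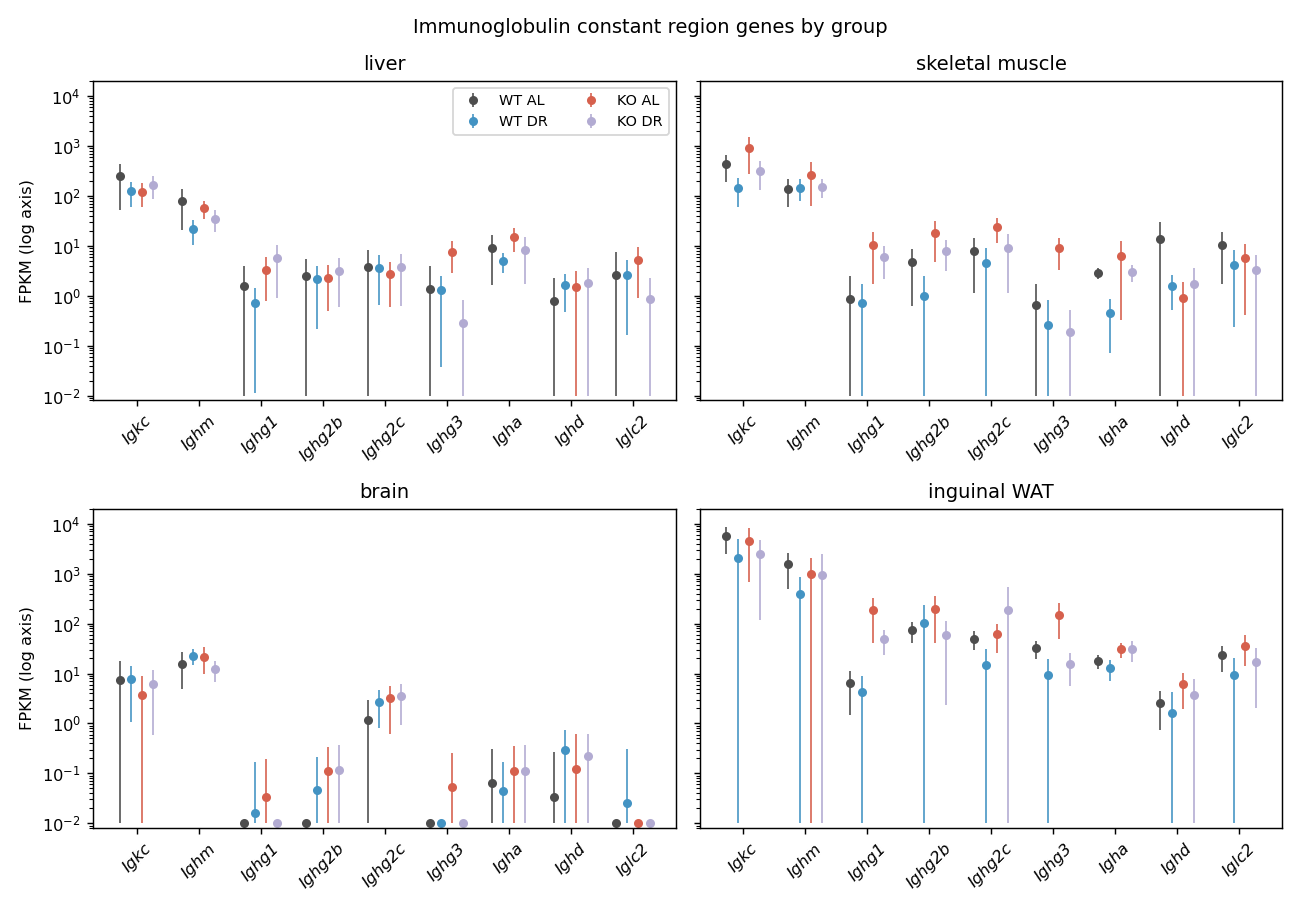
FPKM (log axis) of the 9 constant region genes in each tissue, as points for the 4 groups with the authors' 95% interval as the bar; values and bounds under 0.01 are drawn at 0.01. Igkc and Ighm stand highest in liver, muscle and WAT, Ighm stands above Igkc in brain, and Ighg1 and Ighg3 in WAT are highest in KO AL.

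Of the 14 plasma cell markers, Igj, Mzb1 and Irf4 were higher in each WAT group than in any group of another tissue. Igj (Jchain), which encodes the J chain that joins IgM and IgA into polymers, was 69.8 FPKM in WAT of WT AL, 19.9 in WT DR, 44.5 in KO AL and 24.5 in KO DR. It was 2.01 to 7.44 FPKM in muscle, 1.91 to 3.16 in liver and 0.07 to 0.32 in brain. Mzb1, a chaperone of antibody-secreting cells, was 13.4, 4.88, 8.88 and 7.55 FPKM in the 4 WAT groups and at most 2.61 elsewhere. Igj and Mzb1 had the order WT AL, KO AL, KO DR, WT DR in WAT, with Igkc in the same order. Irf4 (2.02 FPKM), Prdm1 (1.89) and Pou2af1 (4.05) were instead highest in WAT of KO AL. Other markers of the list were highest outside WAT. Tnfrsf17, Pim2 and Sec11c were highest in brain, and Sdc1, Derl3, Fkbp11 and Ell2 in liver. Tnfrsf17, the BCMA receptor of plasma cells, was 0.78 to 0.85 FPKM in WAT, was listed at 0 in liver of WT AL and was highest in brain of WT AL at 1.04. Pim2, a survival kinase, was 14.3 to 24.7 FPKM in brain and 1.16 to 1.69 in WAT. Sdc1, the plasma cell surface marker CD138, was 12.3 to 23.6 FPKM in WAT and 132 to 330 in liver. Prdm1, a master regulator of plasma cells, was 0.32 to 1.89 FPKM in WAT. The whole list of 14 plasma cell genes summed to 187 to 249 FPKM in WAT and 302 to 471 in liver, where Xbp1 and Sdc1, which hepatocytes also express, made up most of it. None of the 12 or 13 plasma cell genes tested in a WAT comparison was differentially expressed. Elsewhere Derl3 was up-regulated in liver of KO DR against WT DR (log2 3.29, SE 0.88) and against KO AL (log2 4.14, SE 1.16), and Pou2af1 was down-regulated in muscle of WT DR against WT AL (log2 -2.98, SE 0.85).

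The B cell list had another pattern. Its 14 genes summed to 25.7 to 56.2 FPKM in WAT, 12.9 to 17.8 in liver and 1.69 to 3.34 in brain. In muscle they summed to 52.9 FPKM in WT AL against 7.87 in WT DR, 10.1 in KO AL and 20.3 in KO DR. Pax5 was instead highest in muscle of KO DR (2.52, 0.88, 0.10 and 7.70 FPKM). Vpreb3 was highest in muscle of KO AL (1.11, 0.76, 1.30 and 0.48 FPKM), and every other gene of the list in WT AL. Cd79a, the signalling chain of the B cell receptor, was 9.46 FPKM in muscle of WT AL and 0.93 in WT DR, a down-regulation of the latter by log2 -3.34 (SE 0.86). Ighd, the constant region of the IgD carried by naive B cells, was 13.8, 1.57, 0.89 and 1.74 FPKM in muscle, and WT AL stood above the others. Its difference from WT AL missed the threshold for WT DR (log2 -3.14, SE 1.00) and for KO AL (log2 -3.96, SE 1.19). Glycam1, made by lymph node vessels, was 8.69 FPKM in the same WT AL muscle and 0.10 to 3.55 in the other muscle groups. The part of lymph node tissue in these values was not tested.

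The classes of heavy chain differed between tissues and between the groups of WAT. Ighm was the most abundant class in every group, at 61.3% to 89.4% of summed heavy chain constant region FPKM in WAT, 79.7% to 94.5% in muscle, 59.96% to 80.9% in liver and 75.2% to 92.6% in brain. In WAT Ighm was 1551 FPKM in WT AL, 399 in WT DR, 1002 in KO AL and 962 in KO DR. The 4 gamma genes together held 9.39% of the heavy chain constant regions in WAT of WT AL and 36.4% in KO AL, with WT DR (24.2%) and KO DR (24.0%) between. Igha held 9.004% to 17.0% in liver, 1.04% to 2.38% in WAT and 0.295% to 1.87% in muscle. Igha itself was 8.94, 5.02, 15.1 and 8.31 FPKM in liver, where Pigr, the receptor that carries IgA across epithelium, was 426 to 541 FPKM.

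**Figure D2:**
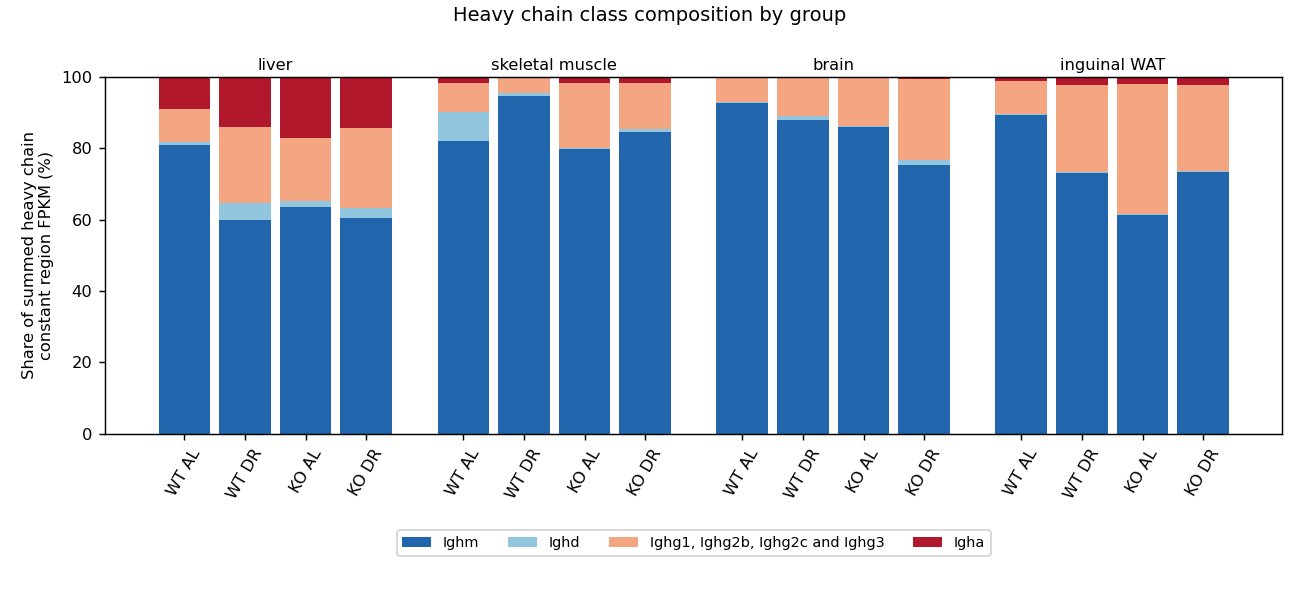
Share of summed heavy chain constant region FPKM (%) held by Ighm, Ighd, the 4 gamma genes and Igha in each of the 16 groups. The Igha share is largest in liver (9.004% to 17.0%), the gamma share of WAT is largest in KO AL (36.4%), and Ighd reaches 8.13% in muscle of WT AL.

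In brain the balance of chains was different. Ighm was 15.7 FPKM in WT AL, 22.9 in WT DR, 21.7 in KO AL and 12.2 in KO DR, which is 1.94 to 5.76 times Igkc, against 0.170 to 0.999 times in the other tissues. Ighg2c was 1.15, 2.72, 3.16 and 3.58 FPKM in the same order, while each of Ighg1, Ighg2b, Ighg3, Igha and Iglc2 was at most 0.115 FPKM. Summed kappa V segments came to 0.30 to 5.85 FPKM and heavy V segments to 1.501 to 1.94 FPKM. Brain thus had reads on Ighm and Ighg2c with few on any V segment.

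Light chains were mostly kappa. Summed kappa V segments in WAT were 3776 FPKM in WT AL, 1291 in WT DR, 3046 in KO AL and 2662 in KO DR, and summed lambda V segments were 109, 49.3, 185 and 63.3 FPKM. Lambda made up 1.57% to 8.13% of light chain V segments in liver, muscle and WAT, with the highest share in muscle of WT AL. Iglv1 led the lambda segments in each of these 12 groups, with 54.4% to 94.0% of their sum. Kappa V segments summed to 0.529 to 1.25 times Igkc outside brain.

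Few kappa segments made up much of the kappa pool. Igkv3-2 was 1015 FPKM in WAT of WT AL (95% interval 399 to 1631), 873 in KO AL (231 to 1515) and 700 in KO DR (84.7 to 1316), but 40.8 in WT DR (0 to 86.3). WT DR stood below the lower bounds of the other 3 groups. Its share of kappa V was 26.9% ± 6.1 (SD from the authors' intervals) in WT AL, 28.7% ± 7.7 in KO AL and 26.3% ± 8.7 in KO DR. In WT DR the leading segment was Igkv5-39 with 11.02% ± 6.9, followed by Igkv4-91 (9.91%) and Igkv4-68 (6.96%). The effective number of kappa segments, which is the number of equally used segments that would give the same evenness, was 9.69, 9.69 and 10.996 in WT AL, KO AL and KO DR and 21.9 in WT DR.

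The same segment led other tissues in some groups only. In liver of WT AL, Igkv3-2 held 42.9% ± 7.4 of kappa V at 101 FPKM, and the effective number was 4.92. It was 3.49 FPKM in WT DR, 15.5 in KO AL and 6.50 in KO DR. Igkv5-39 led the other 3 liver groups, with 6.58% in WT DR, 10.9% in KO AL and 35.7% ± 9.1 in KO DR, where it stood at 43.3 FPKM. In muscle Igkv3-2 led WT AL (15.1% ± 6.7), KO AL (29.2% ± 8.8) and KO DR (28.8% ± 5.6), and Igkv14-126 led WT DR (10.5% ± 5.7). Igkv6-20, at 24.0, 5.42, 23.7 and 24.0 FPKM in muscle, and Igkv10-96, at 4.20, 3.73, 3.62 and 9.75 FPKM in liver, were among the 5 highest V segments of those tissues. Igkv6-20 was 98% identical to Igkv6-29 and had 41.2% of its stretches unique, so its level is uncertain.

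Among heavy segments, Ighv1-53 led all 4 WAT groups, with 10.1% ± 2.4 in WT AL, 12.7% ± 6.8 in WT DR, 11.1% ± 2.9 in KO AL and 15.6% ± 5.1 in KO DR. The effective number of heavy segments in WAT was 26.4 in WT AL, 20.02 in WT DR, 22.9 in KO AL and 21.9 in KO DR, above that of kappa segments except in WT DR. In liver of WT DR it was 16.5 for heavy and 32.9 for kappa segments. In muscle the leaders were Ighv5-6 in WT AL (6.90%), Ighv1-72 in WT DR (7.83%), Ighv2-9-1 in KO AL (13.3% ± 4.2) and Ighv1-53 in KO DR (24.3% ± 6.2). In liver they were Ighv1-53 in WT AL (23.5% ± 6.3) and WT DR (18.7% ± 8.1), Ighv14-4 in KO AL (10.4%) and Ighv1-80 in KO DR (11.8%). Ighv1-72 was 99.2% identical to Ighv1-62-3 and had 10.1% of its stretches unique, so its level is uncertain too. With only segments of at least 50% unique stretches, Ighv1-53 and Ighv1-72 drop out. The leading heavy share in muscle was then 9.39% in WT DR and 15.6% in KO DR. In brain the leading segments rested on sums of under 6 FPKM: Igkv4-58, Igkv12-44, Igkv8-24 and Igkv4-59 for kappa chains and Ighv1-80, Ighv1-42, Ighv14-4 and Ighv1-18 for heavy chains, with Igkv4-55 at the highest kappa mean.

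**Figure D3:**
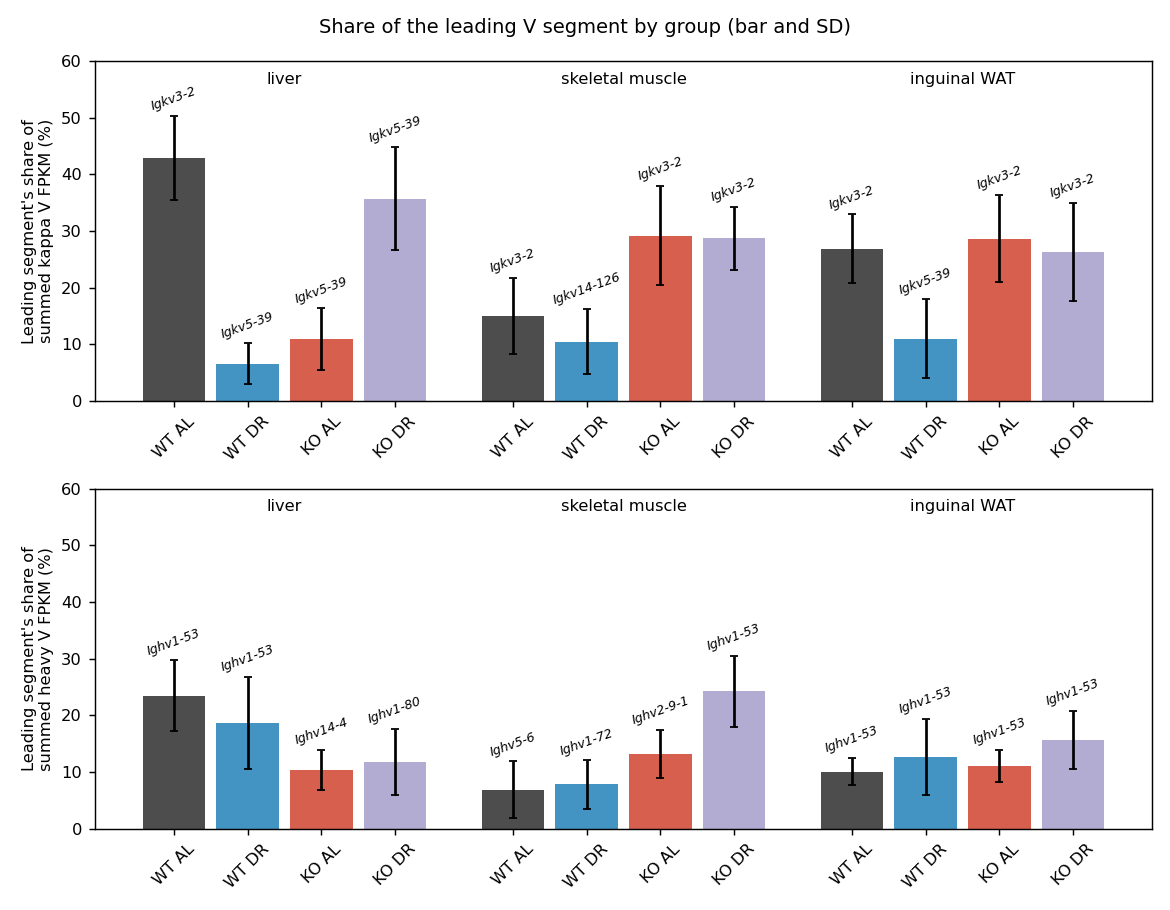
Share of summed kappa V FPKM (upper panel) and heavy V FPKM (lower panel) held by the leading segment in each group of liver, muscle and WAT, in percent, with its name above the bar and an SD from the authors' intervals as the error bar. Kappa shares reach 42.9% in liver of WT AL, and in WAT stand at 26.3% to 28.7% except in WT DR (11.02%).

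Differences between groups were tested on the log2 scale with a Wald test on the authors' values and intervals, with Benjamini-Hochberg adjustment over all genes tested in a tissue and comparison and an FDR of 10%. An SE rests on these intervals alone. In WAT of KO AL against WT AL, 8 of 190 members tested were up-regulated and 6 down-regulated, while 1.29% of all genes tested were called in either direction. The median log2 difference was 0.03 over members and -0.06 over all genes. Ighg1, the constant region of IgG1, was 6.47 FPKM in WT AL, 4.27 in WT DR, 185 in KO AL and 49.6 in KO DR. Both KO groups stood above both WT groups, and KO AL was up-regulated by log2 4.84 (SE 0.79). Ighg3 was 32.6, 9.28, 151 and 15.8 FPKM in the same order and was up-regulated in KO AL by log2 2.21 (SE 0.57). Only KO AL was high. Igkc (log2 -0.31, SE 0.73), Ighm (-0.63, SE 0.90), Igha (0.79, SE 0.33), Ighd (1.27, SE 0.71), Iglc2 (0.63, SE 0.59), Ighg2b (1.42, SE 0.66) and Ighg2c (0.32, SE 0.51) did not pass the test.

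The V segments that passed went both ways. Ighv2-9-1 was 2.65 FPKM in WT AL, 3.33 in WT DR, 143 in KO AL and 8.76 in KO DR (KO AL against WT AL log2 5.76, SE 1.09). Igkv2-109 was 9.25, 20.9, 195 and 12.8 FPKM (log2 4.40, SE 0.96), and Igkv1-135 was 12.7, 15.0, 233 and 44.8 FPKM (log2 4.20, SE 0.89). Each stood highest in KO AL. Ighv5-15 (log2 5.60, SE 1.43) and Igkv4-74 (log2 5.01, SE 1.11) were also up-regulated, as was Igkv9-120, named here to complete the count, which was 6.59 FPKM in WT AL and 54.7 in KO AL. Among those down-regulated, Ighv9-4 was 103 FPKM in WT AL, 0.64 in WT DR, 1.24 in KO AL and 2.48 in KO DR (log2 -6.38, SE 1.28). Ighv5-6 was 75.9, 0.48, 2.31 and 4.43 FPKM (log2 -5.04, SE 1.11). WT AL alone was high for both. The other segments down-regulated were Igkv17-127 (log2 -3.38), Igkv4-57 (-3.05), Igkv8-24 (-2.60) and Igkv12-89 (-2.40).

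Markers of other tissue moved in the same comparison. In KO AL all 5 mammary epithelium genes tested, of 11 in the table, were up-regulated (Krt8, Krt18, Krt19, Epcam and Ltf). The whole list summed to 17.8, 26.1, 142 and 112 FPKM, with the milk protein Csn2 at 0.0338 FPKM or less. The others were too low to be tested. From WT AL to KO AL, Krt14 went from 0.12 to 0.33 FPKM and Elf5 from 0.05 to 0.06. Lalba went from 0.40 to 0.20 and Wfdc18 from 0.46 to 0.10, and Csn3 was 0 in both. The 6 lymph node stroma genes summed to 12.5, 10.5, 38.5 and 28.6 FPKM, and Ccl21a, a chemokine of lymph node stroma, was up-regulated in KO AL by log2 3.11 (SE 0.83). The 7 T cell genes in the table summed to 10.7, 5.91, 14.7 and 14.2 FPKM. Against WT AL, 2 of 3 skeletal muscle genes passed the test as higher in KO AL, and 2 of 3 in WT DR. The list summed to 509, 247, 541 and 439 FPKM in WAT, and Ckm, the creatine kinase of muscle, was 2.204, 114, 148 and 81.0 FPKM. The part of these tissues in the immunoglobulin differences was not tested.

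In WAT of WT DR against WT AL, 7 of 171 members tested were down-regulated, against 0.57% of all genes tested called in either direction, and none was up-regulated. At an unadjusted p under 0.05 there were 42 members (24.6%) in either direction, against 3.56% of all genes. The median log2 difference was -1.42 over members and -0.17 over all genes. A member needed an FPKM of 1 in only 1 of the 2 groups, and 174 reached it in WT AL against 132 in WT DR, which fixed part of this median. Igkv3-2 was down-regulated by log2 -4.64 (SE 0.91), from 1015 to 40.8 FPKM. Igkv12-89 was 268 FPKM in WT AL, 6.29 in WT DR, 50.6 in KO AL and 5.78 in KO DR, and was down-regulated in WT DR by log2 -5.41 (SE 1.12). Ighv9-4 (log2 -7.32, SE 1.41), Ighv5-6 (-7.31, SE 1.36), Igkv17-121 (-6.73, SE 1.35), Igkv4-50 (-6.10, SE 1.45) and Igkv8-28 (-4.82, SE 1.27) were the others. Igkc (log2 -1.42, SE 1.08) and Ighm (-1.96, SE 0.94) did not pass. The comparisons of KO AL and of WT DR share the WT AL group, in which Ighv9-4, Ighv5-6 and Igkv12-89 stood high. The 7 macrophage genes in the table summed to 1191, 440, 621 and 583 FPKM in WAT, and none of them passed the test, while 2 of 3 skeletal muscle genes were up-regulated in WT DR, as given above.

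Under DR, KO differed from WT in WAT in 2 of 174 members, both up-regulated, against 0.283% of all genes tested called in either direction. Ighg1 was 49.6 FPKM in KO DR and 4.27 in WT DR (log2 3.54, SE 0.90), and Igkv3-2 was 700 and 40.8 FPKM (log2 4.10, SE 1.02). Ighg2c was 191 FPKM in KO DR against 14.8 in WT DR, with an SE of 1.55 on a log2 difference of 3.69, and did not pass. In KO DR against KO AL, 5 of 192 members were down-regulated, against 0.707% of all genes tested called in either direction, and none was up-regulated, with 31 at an unadjusted p under 0.05 (16.1%, against 4.03% of all genes). They were Ighg3 (log2 -3.26, SE 0.67), Iglv3 (-4.77, SE 1.20), Ighv5-15 (-4.71, SE 1.23), Ighv2-9-1 (-4.03, SE 1.13) and Igkv2-109 (-3.92, SE 1.04). Of these, Ighg3, Ighv5-15, Ighv2-9-1 and Igkv2-109 were also up-regulated in KO AL against WT AL, a comparison that shares the KO AL group. The interaction subtracts the KO effect seen on AL from the one seen on DR. It passed for 1 of 182 members in WAT, Igkv17-121, against 0.121% of all genes tested in either direction. Igkv17-121 was 61.5, 0.58, 10.9 and 24.9 FPKM.

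**Figure D4:**
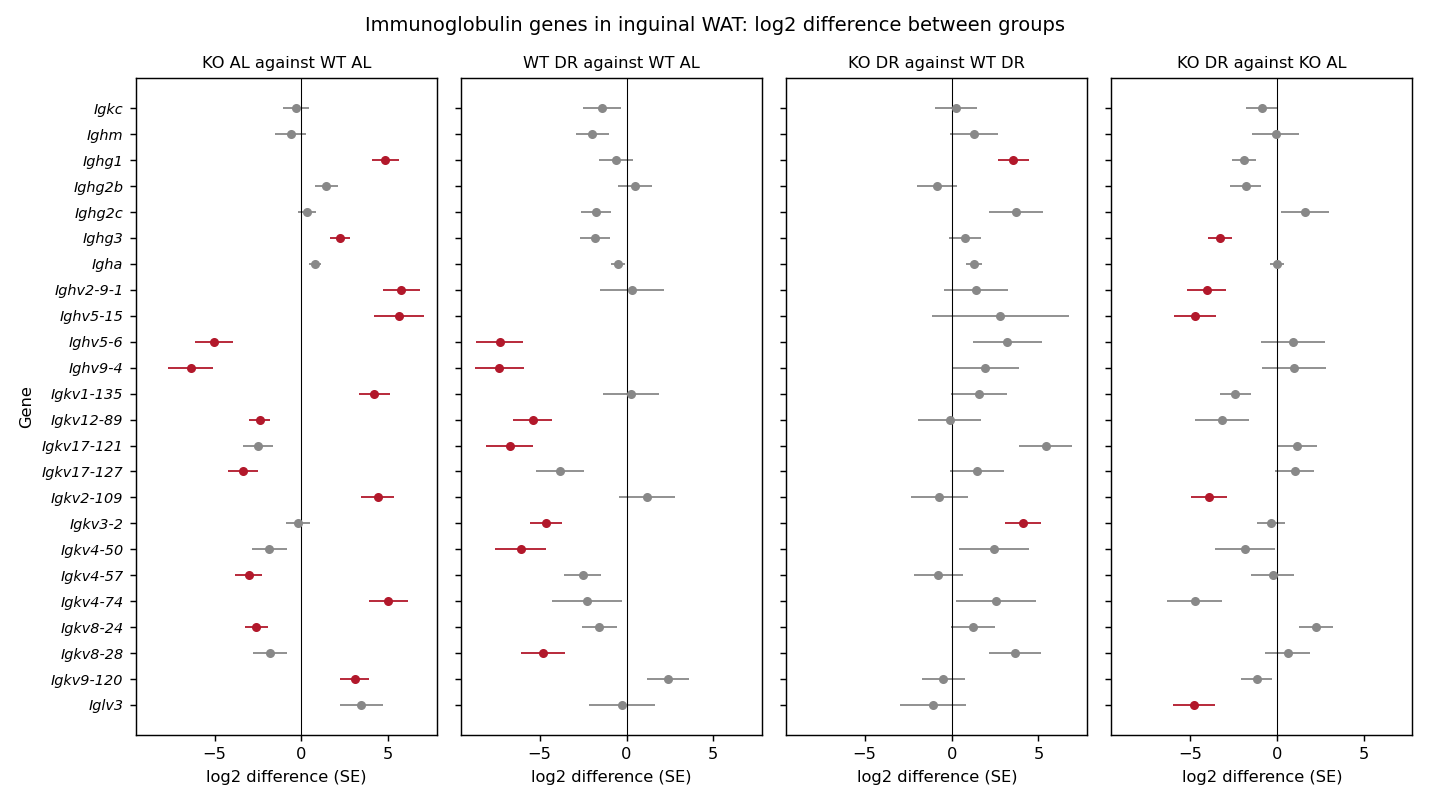
Log2 difference in FPKM between groups of inguinal WAT, with its SE as the bar, for 7 constant region genes and every V segment differentially expressed in WAT, in the 4 comparisons, blank where a gene was not tested. Red points passed an FDR of 10%: Ighg1 and Ighg3 are among them in KO AL against WT AL, and Igkc and Ighm in no comparison.

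In skeletal muscle the KO AL group held the most immunoglobulin mRNA, at 0.103% of summed FPKM against 0.0617% in WT AL, 0.0260% in WT DR and 0.0472% in KO DR. In KO AL against WT AL, 75 of 105 members tested had a positive log2 difference (71.4%, against 46.9% of all genes tested), and the median was 1.06 over members and -0.05 over all genes. A member needed an FPKM of 1 in only 1 of the 2 groups, and 106 reached it in KO AL against 74 in WT AL. Members that entered through KO AL alone had to be positive, so the filter fixed part of this share and median. Only Igkv2-109 passed the test, against 0.681% of all genes tested called in either direction, at 2.05 FPKM in WT AL, 0 in WT DR, 52.1 in KO AL and 1.36 in KO DR (log2 4.67, SE 1.32). KO AL alone was high. Ighg3 (0.67, 0.26, 8.95 and 0.18 FPKM) and Ighg1 (0.88, 0.70, 10.5 and 5.98 FPKM) were highest in KO AL, as in WAT, and did not pass the test (log2 3.75, SE 1.21, and 3.58, SE 1.45). Red blood cell genes were up-regulated in the same comparison, 4 of 5 of them, and their summed level was 950 FPKM in WT AL and 11582 in KO AL. Their part in the differences was not tested.

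The other muscle comparisons gave few calls. Igha was 2.89 FPKM in WT AL, 0.46 in WT DR, 6.29 in KO AL and 2.96 in KO DR. It was the 1 member of 62 down-regulated in WT DR against WT AL (log2 -2.66, SE 0.63), while 1.4% of all genes tested were called in either direction. It was also up-regulated in KO DR against WT DR (log2 2.70, SE 0.67), with Igkv3-2 (log2 3.56, SE 0.65), and these were 2 of 63 members, against 2.23% of all genes tested. WT DR was the low group in each. In KO DR against WT DR of muscle, 2 of 3 fat genes (summed 473 against 83.9 FPKM), 2 of 5 red blood cell genes and 1 of 6 mammary epithelium genes tested were also up-regulated, as was Mbp, a myelin gene, at 74.7 against 6.46 FPKM. All 3 liver genes were down-regulated there. Their part in the Igha and Igkv3-2 differences was not tested. In KO DR against KO AL, 4 of 102 members were down-regulated, against 0.5% of all genes tested called in either direction. They were Ighv2-9-1 (33.5 FPKM in KO AL and 0.29 in KO DR, log2 -6.84, SE 1.80), Ighg3 (log2 -5.61, SE 1.42), Igkv2-109 (-5.26, SE 0.99) and Igkv1-135 (-3.65, SE 1.05). Liver genes were present in muscle of WT DR, where Alb, the serum albumin of hepatocytes, was 987 FPKM against 5.52 to 23.3 in the other muscle groups, and all 3 liver genes were up-regulated against WT AL. The ratio of Ighm to Igkc in that group was 0.999, against 0.296 to 0.493 in the other muscle groups, and their link to the liver genes was not tested.

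In liver the calls lay in comparisons with WT AL. In KO AL, 2 of 65 members were down-regulated, against 0.316% of all genes tested called in either direction, and none was up-regulated, with 7 at an unadjusted p under 0.05 (10.8%, against 2.03% of all genes). Ighv1-53 was 33.9 FPKM in WT AL, 6.47 in WT DR, 2.27 in KO AL and 1.14 in KO DR (KO AL log2 -3.90, SE 0.89), and Igkv3-2 was lower by log2 -2.71 (SE 0.74). In WT DR, Igkv3-2 was the 1 member of 60 down-regulated (log2 -4.86, SE 0.93), against 0.236% of all genes tested called in either direction. Its WT AL interval of 51.2 to 152 FPKM lay above the upper bounds of the other 3 liver groups, the highest of which was 29.3. In WT DR, 51 of 60 members tested had a negative log2 difference with a median of -1.36, against 0.03 over all genes. The filter fixed part of this too, since 62 members reached an FPKM of 1 in WT AL and 39 in WT DR. No member passed the Wald test in KO DR against WT DR, where 0.288% of all genes were called, or in KO DR against KO AL, where 0.611% were. At an unadjusted p under 0.05 there were 4 of 52 members (7.69%, against 1.78% of all genes) in the former and 5 of 68 (7.35%, against 2.87%) in the latter.

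In brain 3 members could be tested, Ighm, Igkc and Ighg2c, and none passed the Wald test in any comparison. Of all genes tested, 0.203% were called in KO AL against WT AL, 0.224% in WT DR against WT AL, 1.16% in KO DR against WT DR and 0.365% in KO DR against KO AL. At an unadjusted p under 0.05 there was 1 case, Ighm in KO DR against WT DR (log2 -0.91, SE 0.42), where 7.502% of all genes reached it. The interaction was passed by no member in liver, muscle or brain, where 0.086%, 0.371% and 0.396% of all genes were called. At an unadjusted p under 0.05 there were 4 of 57 members in liver (7.02%, against 1.05% of all genes), 6 of 68 in muscle (8.82%, against 2.30%) and 0 of 3 in brain (against 3.53%).

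Segments that were high in a single WAT group were then followed into the other tissues. A segment was taken as particular to a group when its WAT level was at least 5-fold above the next group. A next group under 1 FPKM was counted as 1 FPKM. This choice was made after values were seen and so is without a test. There were 12 such segments in KO AL, 8 in WT AL, 5 in KO DR and 1 in WT DR. Of the 12 of KO AL, 10 were also highest in KO AL among the muscle groups, where 55.9% of all 186 V segments above 0 in muscle were highest in KO AL. In liver 4 of the 12 were, against 37.9% of 174 V segments above 0. Among the 12, Ighv3-5 and Ighv2-6, named here for the count, were at 0 in all liver groups and could not be highest in any. Ighv2-9-1 was 0.29, 0.76, 33.5 and 0.29 FPKM in muscle, and Igkv1-135 was 0.89, 2.22, 13.6 and 1.09 FPKM. Of the 8 of WT AL, 3 were highest in WT AL in muscle, where 22.0% of V segments above 0 were, and 5 in liver, where 29.9% were. Among the 8, Ighv3-3 and Igkv8-18, also named for the count, were at 0 in all muscle groups. Ighv3-3 was at 0 in all liver groups as well. Of the 5 of KO DR, 2 were highest in KO DR in muscle (16.1% of V segments) and 0 in liver (17.8%), and the 1 of WT DR was highest in WT DR in neither. Ighv9-4 was 17.3 FPKM in liver of WT AL and at most 0.62 in the other liver groups, and 4.09 against at most 0.45 in muscle.

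**Figure D5:**
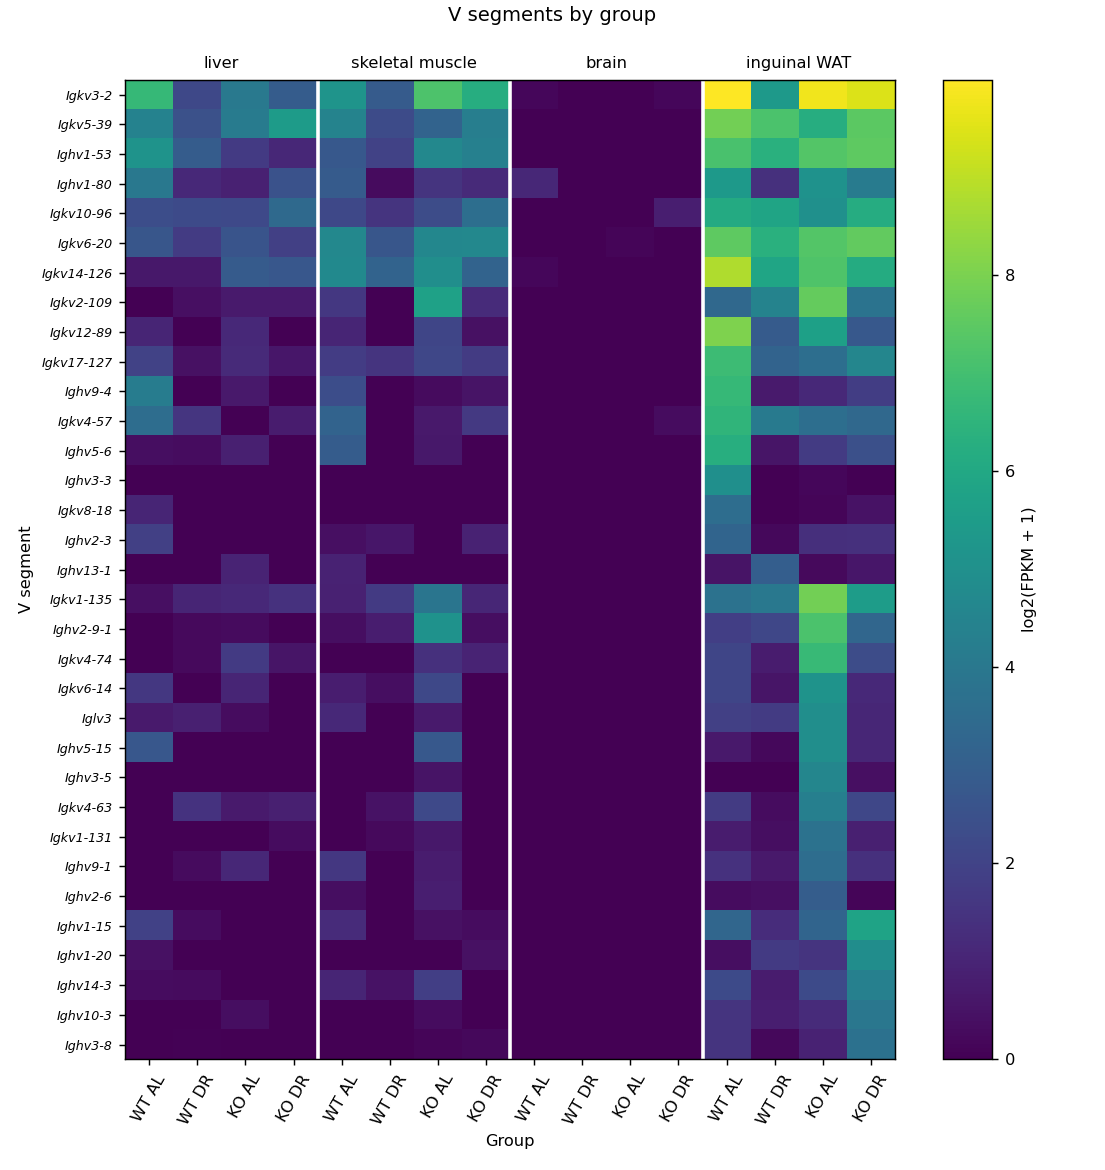
Levels of V segments, as log2(FPKM + 1) by colour, in the 16 groups for the 5 highest segments of liver, muscle and WAT and for the segments particular to a WAT group. Igkv3-2 is bright in WAT except in WT DR, and Igkv2-109, Igkv1-135 and Ighv2-9-1 are bright in WAT and muscle of KO AL.

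Segment usage as a whole was compared by the overlap of shares, which is the sum over segments of the lower share in a pair of groups. Kappa usage in muscle overlapped with WAT of the same group by 59.4% to 80.8% (median 74.6%) and with WAT of other groups by 47.4% to 71.3% (median 57.4%). By this overlap every muscle group was closest to WAT of its own group, 4 of 4 for kappa and 4 of 4 for heavy chains. For heavy chains of WT DR muscle the margin was small, 53.98% against 53.92% with WT AL. Spearman correlations of shares differed in part. For kappa, muscle of WT AL (0.723, own group 0.695) and WT DR (0.682, own 0.597) was closest to WAT of KO DR. For heavy chains, WT DR muscle was closest to WAT of WT AL (0.485, own 0.474). Between liver and WAT the medians were 56.5% for the same group and 50.4% for other groups, and 1 of 4 liver groups was closest to its own WAT group for kappa and 1 of 4 for heavy chains. From the side of WAT, 3 of 4 groups were closest to their own liver group for kappa and 1 of 4 for heavy chains, and 3 of 4 and 4 of 4 to their own muscle group. The labels do not say whether tissues with the same replicate number came from the same mouse. Fat markers were present in muscle, where Adipoq, the adipokine of fat cells, was 7.51%, 0.786%, 5.21% and 6.23% of its WAT level, and Plin1, which coats lipid droplets, was 6.51%, 1.46%, 18.4% and 13.4%. Igkc in muscle was 7.76%, 7.05%, 20.2% and 12.7% of its WAT level and Ighm 8.97%, 36.8%, 26.7% and 15.9%. The part of fat carried into muscle samples was not tested.

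A pair of V segments known from B-1a cells, the self-renewing B cells of the body cavities that secrete natural IgM, was looked at after the values were seen. Ighv11-2 and Igkv14-126 together form a well-known antibody against phosphatidylcholine. In WAT Ighv11-2 was 64.7 FPKM in WT AL, 12.9 in WT DR, 22.0 in KO AL and 7.49 in KO DR, and Igkv14-126 was 441, 58.0, 151 and 68.9 FPKM. Both were highest in WT AL and next in KO AL, and neither passed the test in any WAT comparison. Ighv11-2 was 99.2% identical to Ighv11-1 and had 51.0% unique stretches. The second such pair, Ighv12-3 and Igkv4-91, did not run together, at 5.81, 4.48, 3.61 and 4.34 FPKM for Ighv12-3 and 28.2, 128, 29.6 and 23.0 FPKM for Igkv4-91, which was highest in WT DR.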

How the data were processed

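Poly(A) RNA of 43 libraries in 16 groups was sequenced on an Ion Proton. Per the labels and methods, the authors trimmed reads with cutadapt 1.5, removed reads under 54 bases, mapped them to GRCm38 and ran Cuffdiff 2.2.1 with correction for multi-mapped reads. They deposited FPKM values, 1 per gene and group with the bounds of a 95% interval. Read counts were not used here, so depth is unknown. Values are group values with no library behind them that could be examined, and p values measure the authors' model of spread, which may be technical in part.

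SD was taken as the upper bound less the FPKM, divided by 2. Log2 ratios were tested with a two-sided Wald test (delta-method SE, normal reference, Benjamini-Hochberg adjustment within tissue and comparison, FDR 10%) over entries with status OK, FPKM above 0 in both groups and at least 1 in one. Shares of segments used the same SD. P values are not printed, as a normal reference is rough at 2 or 3 libraries per group. The software was Python 3.11.15 with pandas 2.3.3 and numpy 2.4.6 for tables, statsmodels 0.14.6 and scipy 1.17.1 for tests, and matplotlib 3.10.9 for plots. The test was checked on simulated data drawn with the SDs that the test itself uses. That check cannot show whether these SDs describe the spread between mice. Segment sequences came from GENCODE M21 transcripts. Samples were grouped by the labels.

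Members, marker lists and tests were chosen with earlier results of these data known. Named genes were all constant regions, leading segments per group, the 5 highest V segments per tissue, called members (the 4 largest in each direction where over 12 were called) and those at the FPKM minimum. Exceptions are marked in the text. Alternatives were an FDR of 5%, FPKM minimums of 2 and 5, no FPKM filter, a pseudocount of 1, centring, no joined entries, a smaller SE, sums by family and, added after seeing the data, unique segments and scaling to summed FPKM.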

Additional observations from a re-analysis of the deposited data

Results flagged for a closer look

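Igkv17-121 in inguinal WAT differed in its genotype effect between the diets. It was 61.5 FPKM in WT AL and 10.9 in KO AL, but 0.58 in WT DR and 24.9 in KO DR, so the values of KO lay below WT under AL and above WT under DR. Neither genotype difference passed the test by itself (log2 -2.50, SE 0.86, under AL and 5.43, SE 1.53, under DR). The interaction was log2 7.93 (SE 1.76) and passed the Wald test at an FDR of 10%. Its nearest segment, Igkv17-127, was 98.0% identical over the last 250 bases of coding sequence, and 64.7% of the 54-base stretches of Igkv17-121 were unique.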

How the results depend on the processing

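No paired analysis was possible because the table holds 1 value per group, so neither a replicate block nor leaving out a library was run. With centring on the median, no FPKM filter or joined entries left out, every count of called members stayed within 1.5 times the value reported. Under an FDR of 5% the count went from 2 to 1 in liver and from 1 to 0 in muscle (KO AL against WT AL). With FPKM of at least 5 it became 2 in muscle for KO AL against WT AL, 1 in muscle and 4 in WAT for KO DR against WT DR. The other counts moved by under 1.5 times in both settings.

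With each SD divided by the square root of the number of libraries, the counts for KO AL against WT AL, WT DR against WT AL, KO DR against WT DR and KO DR against KO AL were 6, 9, 5 and 11 in liver, 20, 13, 25 and 20 in muscle and 54, 33, 19 and 47 in WAT, with 1 in brain for KO DR against WT DR. The interaction counts were then 4 in liver, 7 in muscle, 1 in brain and 21 in WAT. Of all genes, 1.54%, 2.86%, 2.64% and 4.80% were then called in liver, 3.64%, 6.37%, 10.7% and 2.69% in muscle, 5.94%, 2.75%, 1.13% and 7.39% in WAT and 18.5% in brain for KO DR against WT DR, and 0.803%, 2.77%, 5.15% and 1.20% for the interaction in liver, muscle, brain and WAT.

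With a pseudocount of 1, which lets in entries listed at 0 with an interval of 0, the same counts were 12, 6, 3 and 5 in liver, 15, 8, 13 and 15 in muscle and 26, 23, 13 and 14 in WAT. Brain gave 1 for WT DR against WT AL and 1 for KO DR against WT DR, and the interaction gave 6, 13, 1 and 15 in liver, muscle, brain and WAT. Of all genes, 2.03%, 1.49%, 1.48% and 2.16% were then called in liver, 2.32%, 3.45%, 4.16% and 2.16% in muscle, 2.98%, 1.62%, 1.27% and 2.13% in WAT, 1.89% and 3.32% in those comparisons of brain, and 1.96%, 3.34%, 2.79% and 1.68% for the interactions.

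Taking as members only those whose lower bound was above 0 left 99 of 204. Summing V segments by family moved 20 of 32 leading shares by more than their SD, for example to 27.7% for kappa family 4 in WAT of WT DR, and scaling to summed FPKM moved 6 of 12 tissue ratios of Igkc by more than their SD. Of the other 6, 2 moved by over 1.5 times, from 14.2 to 22.5 for WAT over muscle and from 268.5 to 177.5 for WAT over brain, both in WT DR. The cause of these moves was not tested beyond what each alternative changes. Depth per library is unknown, and among members the smallest difference between groups that passed was a log2 of 2.21, for Ighg3 in WAT of KO AL against WT AL.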

Other observations

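The short joining (J) segments were not members. Ighj4 was listed at 1049 FPKM in WAT of WT AL, 810 in KO AL and 296 in KO DR, at 0 in WT DR, and at 455 in muscle of WT AL, and at 272.5 in liver of KO DR. Ighj1 was listed at 2006 in WAT of WT AL, 330 in KO AL and 275.5 in liver of KO DR, Ighj2 at 699 in WAT of WT DR and 340 in KO DR, and Ighj3 at 566 in WAT of WT AL. All other groups were listed at 0 for these 4 rows. The 5 Igkj rows were listed at 0 in all 16 groups. In WAT of WT AL, Ighj1 was thus listed above Ighm (1551 FPKM), while the Igkj rows were at 0 beside 5573 FPKM of Igkc. The levels of these short rows therefore cannot be compared with those of longer genes.

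Ighe, the constant region of IgE, was at most 0.25 FPKM in all groups but WAT of KO DR, where it was 1.08. Igll1, a surrogate light chain of B cell precursors, was at most 0.09 FPKM in any group.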
